A study of Mus musculus with 12 samples.

Results

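The kynurenine pathway is the main route by which the liver breaks down tryptophan, and it ends at a branch where carbon is either oxidised or turned into the coenzyme NAD. The 10 genes described here cover that route and its link to nicotinamide: Tdo2, Ido2, Afmid, Kmo, Kynu, Haao, Acmsd, Qprt, Nampt and Nnmt. They were found by gene symbol among the 22471 features of each library, each matched 1 feature, and all 10 passed the filter on low counts in every comparison. The list was selected on symbol and pathway role with the CPM values and fold changes of all 4 groups already known, so the fold changes and adjusted p-values of these 10 genes describe these libraries and are not independent evidence of a response.

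RNA sequencing was carried out on primary hepatocytes, which per the study's methods were isolated by collagenase perfusion from 6-week-old male C57BL/6J mice, whereas the sample labels give the tissue as liver. Cells were left as controls or received 0.2 mM oleic acid with albumin (OA, used to load the cells with lipid), 15 µM benzbromarone (BBR, a drug that lowers uric acid) or both agents (BBR+OA) for 16 h. Each of the 4 groups held 3 libraries, and the sources name no transgene or engineered deletion for any of them. The sources do not say if a replicate was a mouse or a well. The p-values therefore set group differences only against the spread of the labelled replicates, which may be technical.

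In the pathway, Tdo2 and the related enzyme Ido2 open the indole ring of tryptophan, and Afmid removes the formyl group to give kynurenine. Kmo hydroxylates kynurenine, Kynu cleaves off alanine and Haao opens the ring again to give an unstable semialdehyde. Acmsd decarboxylates that semialdehyde and sends it towards oxidation. Semialdehyde that escapes Acmsd closes spontaneously to quinolinate, which Qprt joins to phosphoribose on the way to NAD. Nampt rebuilds NAD from nicotinamide by the salvage route and is known as its rate-limiting enzyme, while Nnmt methylates nicotinamide and so removes it from salvage.

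Nampt was the only one of the 10 mRNAs that rose with BBR alone at an adjusted p under 0.05 in edgeR. The DNA upstream of its start site is shown for that reason. The sequence is the 250 bases before the RefSeq transcription start on GRCm38.p6, read 5′ to 3′ along the sense strand. Capitals mark matches on either strand to the motifs searched, which were AGGTCA (a nuclear receptor element core), CACGTG (an E-box), GGGCGG (a GC box), TATAAA and CCAAT. The window lies at chr12:32820085-32820334 on the plus strand. It overlaps no annotated exon in GENCODE vM21, although it falls inside the annotated span of the gene.
Nampt: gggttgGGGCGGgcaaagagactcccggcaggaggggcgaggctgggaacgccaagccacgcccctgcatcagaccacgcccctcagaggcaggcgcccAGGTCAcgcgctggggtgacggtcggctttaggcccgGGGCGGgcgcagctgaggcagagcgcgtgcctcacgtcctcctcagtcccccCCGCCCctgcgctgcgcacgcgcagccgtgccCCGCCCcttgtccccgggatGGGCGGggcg

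The Nampt window had a GC content of 75.6%, against a median of 52.4% over 32851 RefSeq windows. It held 1 AGGTCA 151 bases before the start and 5 GC boxes at 244, 114, 62, 30 and 10 bases before it. AGGTCA occurred in 14.0% of all windows, GGGCGG in 32.7%, CACGTG in 6.02%, TATAAA in 12.4% and CCAAT in 33.8%, and the matches in Nampt did not overlap each other. Windows were used for 6 of the 10 genes, and those of Acmsd, Kynu, Ido2 and Nnmt were not analysed here. Of the others, Tdo2 and Haao each held 1 AGGTCA, Tdo2 also held 1 TATAAA and 1 CCAAT, Afmid held 1 GGGCGG, and none of the motifs matched in Kmo or Qprt. The Tdo2 and Haao windows lie wholly within annotated exons of those genes (250 bases each), 197 bases of the Kmo and Qprt windows lie in their own exons, and 205 bases of the Afmid window lie in exons of Tk1. These matches describe letters only.

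Total counts ranged from 15485508 to 23668379 per library, so that the upper limit allowed by a count of 0 (3 counts) lay between 0.127 and 0.194 CPM (counts scaled to library size), covering counting error only. Mitochondrially encoded genes took 5.50% to 6.07% of counts in control, 5.63% to 6.28% with OA, 6.34% to 6.89% with BBR and 6.09% to 6.59% with BBR+OA, so that control and BBR did not overlap. Hepatocyte markers were high: the 7 of 8 listed markers found in the files summed to between 32559 and 40161 CPM. With BBR alone 2 of them were called higher (Ttr and Cyp2e1) and 2 lower, Fgb at 56.9% and Hnf4a at 83.5% of control. For BBR+OA against OA, 0 of the 7 were called higher and 1 lower, Fgb at 85.7% of its OA level. The interaction of BBR and OA, described below, was called above 0 for 2 of the 7 and below 0 for 0.

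Markers of other cells were lower and some moved with the groups. The 10 macrophage markers summed to 103 to 119 CPM in control and 141 to 184 CPM with BBR, a gap carried by Cd68, since the other 9 summed to 29.8 to 36.0 CPM and 27.3 to 35.2 CPM. With BBR, 1 of the 10 (Cd68) was called higher and 1 lower (Cd5l, at 62.6% of control). With OA, 2 of the 10 were called higher than in control and 6 lower. Endothelial markers summed to 51.0 to 54.0 CPM in control and 58.2 to 62.9 CPM with BBR, where 3 of 6 (Pecam1, Kdr and Cdh5) were called higher, and to 47.5 to 60.7 CPM with OA. Stellate markers summed to 23.0 to 29.0 CPM over the 12 libraries. Cholangiocyte markers summed to 589.8 to 722 CPM in control, 391 to 421 CPM with BBR and 242 to 272 CPM with OA, most of it Spp1, which was called lower with BBR at 56.3% of control. Without Spp1 they summed to 37.4 to 43.6 CPM in control, 59.5 to 69.5 CPM with BBR and 49.8 to 68.9 CPM with OA, and Sox9, Krt19 and Epcam were called higher with BBR. The T cell marker Cd3e and the natural killer cell marker Ncr1 were at 0 in every library. In these bulk libraries, fewer cells of a type and less RNA per cell cannot be told apart, and the part that cell composition plays in the results below was not tested.

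Levels of different genes were compared on the deposited FPKM scale, which divides by transcript length. In control cells Nnmt was the most abundant of the 10 at 34.04 FPKM ± 1.13 (SD, n = 3), followed by Nampt at 30.3 FPKM ± 1.099. Qprt and Tdo2 came next at 15.1 FPKM ± 0.652 and 14.7 FPKM ± 0.740 and overlapped each other. Kynu followed at 12.6 FPKM, then Afmid at 6.46 FPKM and Acmsd at 5.53 FPKM ± 0.776, whose libraries overlapped. Haao and Kmo overlapped at 2.87 FPKM and 2.57 FPKM, and Ido2 was lowest at 0.703 FPKM.

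This order differed between groups. Acmsd held rank 7 of 10 in control, rank 3 with OA at 14.5 FPKM, rank 8 with BBR at 2.31 FPKM and rank 4 with BBR+OA at 12.6 FPKM. Tdo2 stood at 12.9 FPKM with BBR but at 4.22 FPKM with OA and 3.82 FPKM with BBR+OA, so that it passed from the upper to the lower part of the list whenever OA was present. Nampt was first in the 3 treated groups, at 39.3 FPKM with OA, 40.3 FPKM with BBR and 37.4 FPKM with BBR+OA. Ido2 was last in all 4 groups.

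To examine the effect of BBR without added lipid, the BBR and control libraries were compared. Most of the pathway was lower with BBR: Acmsd stood at 42.5% of its control level, Kynu at 43.5%, Qprt at 55.3%, Afmid at 66.4% and Nnmt at 67.2%, whereas Nampt was 1.35-fold higher. Of the 10 genes, 7 fell and 1 rose at an adjusted p under 0.05 in edgeR's quasi-likelihood test, while 27.7% of all 12555 genes tested were called, 13.2% higher and 14.5% lower. The median log2 fold change of the 10 was -0.58, beside -0.00085 over all genes. At an unadjusted p under 0.05 there were 9 of the 10 genes, beside 38.3% of all genes. The groups were fully separated in CPM for 9 of the 10 genes and for 41.5% of all genes. The falls of Tdo2 and Kmo were small and were each lost without any 1 of 4 single libraries, as given below.

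With OA present throughout, the effect of BBR was examined by comparing BBR+OA with OA. None of the 10 genes was called by edgeR or by DESeq2, and 1 gene (Acmsd) had an unadjusted p under 0.05. In this comparison 4.59% of all 12278 genes were called, 1.95% higher and 2.63% lower, or 563 genes. The count of 563 became 468, 249 and 632 without OA replicate 1, 2 or 3. It became 373, 230 and 216 without BBR+OA replicate 1, 2 or 3. The median absolute log2 fold change of the 10 genes was 0.13, beside 0.094 over all genes, whereas without OA it was 0.58 beside 0.14. The unadjusted threshold was met by 19.1% of all genes. The CPM of Acmsd alone separated the groups fully, against 23.9% of all genes.

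The difference between these effects was tested directly as the interaction of BBR and OA on all 12 libraries, the log2 change with BBR in the presence of OA minus that in its absence. It was called for 5 of the 10 genes and for 12.2% of all 12742 genes, 6.87% above 0 and 5.31% below 0. With 1 library left out, the count of 1551 ran from 1027 (OA replicate 2) and 1028 (BBR replicate 2) to 1679 (OA replicate 3). The calls among the 10 stayed at 5 or 6. Acmsd (1.04), Kynu (1.04), Qprt (0.98) and Nnmt (0.53) had positive values, and each was lower with BBR alone. With BBR+OA, the libraries of Kynu, Qprt and Nnmt overlapped those with OA. Acmsd stood below its OA level without overlap, at 86.6% of it (adjusted p = 0.0830 in edgeR). Nampt had a negative value (-0.49). Tdo2, Kmo, Afmid, Haao and Ido2 were not called, and 7 of the 10 genes had an unadjusted p under 0.05, as had 25.6% of all genes.

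**Figure D1:**
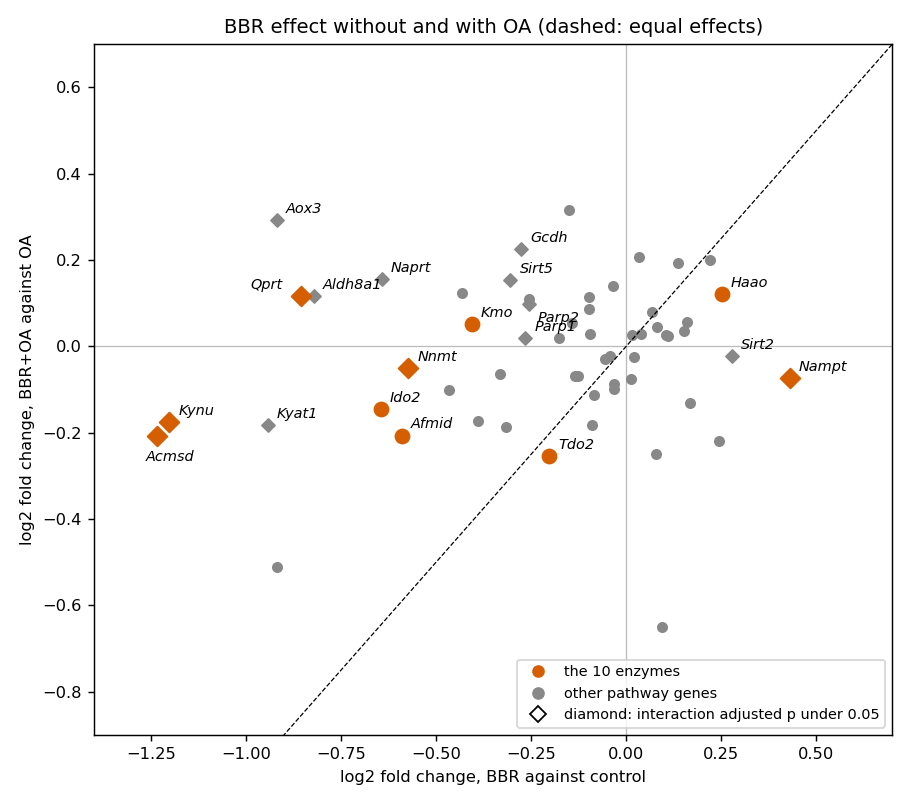
Log2 fold change with BBR in the absence of OA (x axis) against that in the presence of OA (y axis) for the 10 genes (orange) and the other pathway genes tested in both comparisons (grey); diamonds mark an interaction with an adjusted p under 0.05 and the dashed line equal effects. Acmsd and Kynu lie at -1.23 and -1.20 on the x axis, while all 10 genes lie between -0.25 and 0.12 on the y axis.

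OA itself was examined against control. It raised Acmsd 2.69-fold and Nampt 1.33-fold, and it lowered Tdo2 to 30.8% and Afmid to 48.8% of control, with smaller falls of Kynu and Qprt. Thus 6 of the 10 genes were called, 2 higher and 4 lower, beside 42.8% of all 12418 genes, 21.3% higher and 21.5% lower (2643 and 2668 genes, or 2077 and 3216 with upper quartile scaling, under which the 10 genes kept the same counts). Unadjusted p-values under 0.05 were found for 7 of the 10 genes and for 50.3% of all genes, and full separation of the groups for 7 and for 52.2%. The median log2 fold change of the 10 was -0.019, while the median absolute value was 0.27 beside 0.20 over all genes.

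When OA was added to BBR, Acmsd rose 5.49-fold and Tdo2 fell to 29.8% of its BBR level. Kynu, Qprt, Kmo and Nnmt rose and Afmid fell, so that 5 genes were higher and 2 lower, beside 38.9% of all 12416 genes, 20.1% higher and 18.8% lower (2496 and 2330 genes, or 1976 and 2870 with upper quartile scaling, under which Nampt became an added fall at -0.13 and an adjusted p of 0.0461). An unadjusted p under 0.05 was found for 7 of the 10 genes and for 46.7% of all genes, and full separation for 8 and for 49.6%. The median log2 fold change of the 10 was 0.49. The 2 comparisons with OA share libraries with the 2 comparisons with BBR, so values of each are given side by side and were not correlated.

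**Figure D2:**
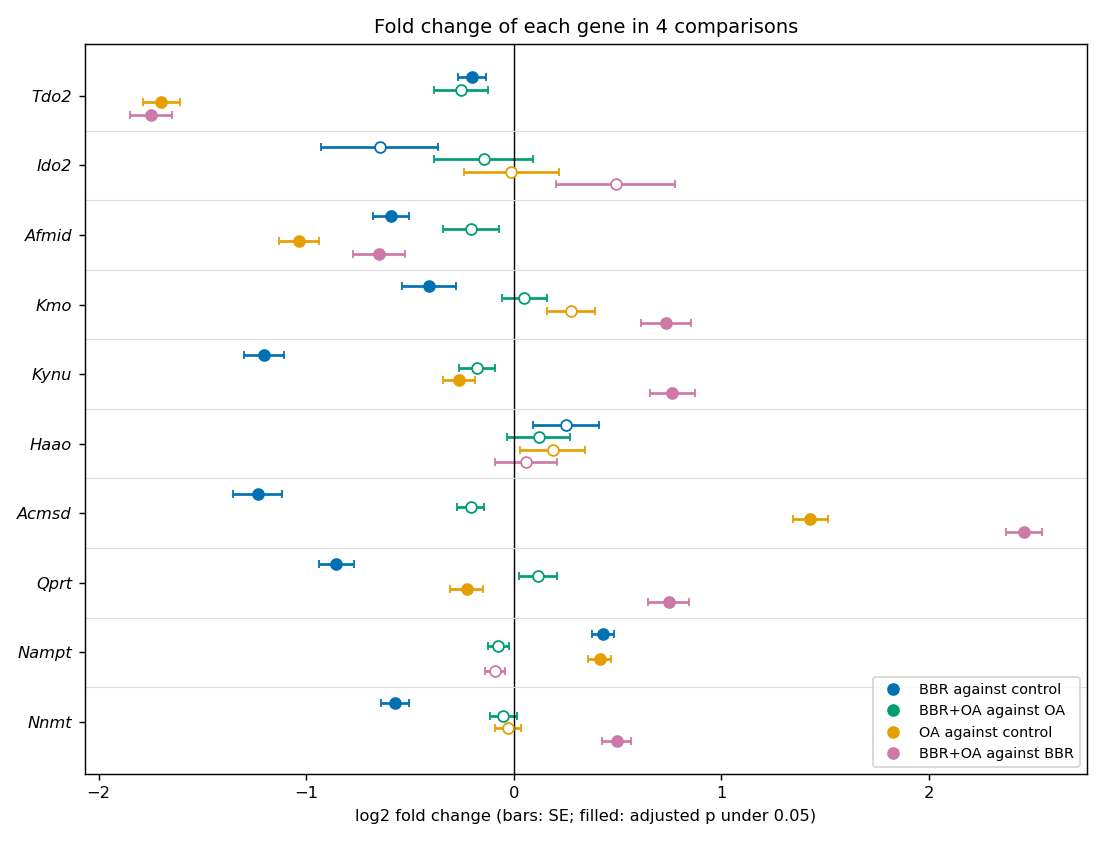
Log2 fold changes of the 10 genes in the 4 comparisons of groups, with bars of 1 SE and filled symbols for an adjusted p under 0.05 in edgeR. Acmsd spans the widest range, from -1.23 for BBR against control to 2.46 for BBR+OA against BBR, and no symbol is filled for BBR+OA against OA.

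The entry step was led by Tdo2 (ENSMUSG00000028011, chromosome 3, 81957090 to 81976202, minus strand, GRCm38), the hepatic dioxygenase. Tdo2 measured 33.0, 35.7 and 36.8 CPM in control and 9.34, 10.9 and 12.05 CPM with OA. It measured 32.5, 28.6 and 29.96 CPM with BBR and 9.97, 7.40 and 9.89 CPM with BBR+OA. The 6 libraries with OA all lay below the 6 without it, with no overlap. On the log2 scale the change with OA was -1.70 (SE 0.089, adjusted p = 5.36e-09 in edgeR) without BBR and -1.75 (SE 0.10, adjusted p = 1.25e-08) with BBR.

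BBR moved Tdo2 far less than OA did. Its log2 fold change with BBR alone was -0.20 (SE 0.067, adjusted p = 0.0336), and the adjusted p rose to between 0.0892 and 0.131 without control replicate 2 or 3 or BBR replicate 2 or 3, to 0.0807 in DESeq2 and to 0.0769 with all 12 libraries in 1 fit. In the presence of OA it was -0.25 (SE 0.13, adjusted p = 0.314). The interaction was -0.042 (adjusted p = 0.900), so a difference between these effects was not detected, and the sign of that value changed when some single libraries were left out.

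Ido2 (ENSMUSG00000031549, chromosome 8, minus strand), a dioxygenase with low affinity for tryptophan, was detected at a low level in all 12 libraries, between 0.699 and 2.004 CPM. It averaged 1.70 CPM ± 0.289 (SD, n = 3) in control and 1.07 CPM ± 0.323 with BBR, which is -0.65 on the log2 scale (SE 0.28, adjusted p = 0.101). All 3 BBR libraries lay below all 3 control libraries, while 41.5% of all genes were fully separated in either direction. The edgeR p was 0.0352 before adjustment, and 38.3% of all genes had an unadjusted p under 0.05. Over the main fit and its alternatives the adjusted p of this fall ran from 0.0628 to 0.341. Ido2 was not called in any comparison.

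Afmid (ENSMUSG00000017718, chromosome 11, 117825924 to 117839908, plus strand), the kynurenine formamidase, was highest in control at 15.05, 14.6 and 14.0 CPM. It measured 9.57, 9.85 and 9.41 CPM with BBR, 7.75, 6.76 and 6.69 CPM with OA and 6.43, 6.81 and 5.06 CPM with BBR+OA. All 9 treated libraries lay below all 3 control libraries. Its log2 fold change was -0.59 (SE 0.087, adjusted p = 9.04e-05) with BBR, -1.03 (SE 0.097, adjusted p = 1.24e-06) with OA and -0.65 (SE 0.12, adjusted p = 8.27e-04) for BBR+OA against BBR.

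In the presence of OA, Afmid changed by -0.21 with BBR (SE 0.14, adjusted p = 0.456). The interaction was 0.39 (adjusted p = 0.0991) and passed the threshold, at 0.48 and an adjusted p of 0.0419, without BBR+OA replicate 3. Afmid shares 44.2% of its exonic bases with the predicted gene Gm20708 on the same strand, which averaged 0.333 counts, and 83 bases with Tk1 on the other strand, which averaged 22.3 counts. Whether the counting used the strand is not given in the sources used here.

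Kmo (ENSMUSG00000039783, chromosome 1, plus strand), which hydroxylates kynurenine at the mitochondrial outer membrane, measured 6.72, 6.35 and 7.49 CPM in control and 5.52, 4.63 and 5.22 CPM with BBR. It measured 8.94, 7.85 and 8.07 CPM with OA and 9.01, 8.24 and 8.52 CPM with BBR+OA. The BBR libraries were lowest, and the OA and BBR+OA libraries overlapped. Kmo rose when OA was added to BBR, with a log2 fold change of 0.73 and an SE of 0.12 (adjusted p = 2.47e-04).

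The fall of Kmo with BBR alone was -0.41 (SE 0.13, adjusted p = 0.0286), and it was lost without control replicate 1 or 3 or BBR replicate 2 or 3 (adjusted p 0.0543 to 0.122) and in DESeq2 (adjusted p = 0.0777). OA against control gave 0.28 (adjusted p = 0.0665), which reached an adjusted p of 0.0488 without control replicate 3. The interaction of 0.47 had an adjusted p of 0.0594, and without OA replicate 1 or BBR replicate 1 it passed the threshold, at 0.52 and 0.53.

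Kynu (ENSMUSG00000026866, chromosome 2, 43555329 to 43682715, plus strand), the kynureninase that releases alanine and is dependent on vitamin B6, measured 22.9, 26.01 and 24.1 CPM in control. With BBR it measured 10.7, 8.75 and 11.9 CPM, with OA 21.2, 18.8 and 20.6 CPM, and with BBR+OA 16.3, 19.8 and 17.6 CPM. The BBR group stood below every other library, and the OA and BBR+OA groups overlapped. The log2 fold change was -1.20 with BBR (SE 0.096, adjusted p = 1.89e-07) and -0.18 with BBR in the presence of OA (SE 0.086, adjusted p = 0.287).

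The interaction for Kynu was 1.04 (SE 0.14, adjusted p = 8.61e-05). Kynu rose when OA was added to BBR (log2 0.76, SE 0.11, adjusted p = 7.84e-05) and fell with OA in the absence of BBR (log2 -0.26, SE 0.076, adjusted p = 0.0121). That small fall was lost without control replicate 2 or OA replicate 2, where the adjusted p was 0.0616 and 0.0628.

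Haao (ENSMUSG00000000673, chromosome 17, minus strand), is the dioxygenase that makes the semialdehyde. Its group means ran from 3.46 CPM ± 0.268 (SD, n = 3) in control through 3.92 CPM ± 0.348 with OA and 4.11 CPM ± 0.349 with BBR to 4.26 CPM ± 0.174 with BBR+OA. It was called in none of the comparisons. With BBR alone its log2 fold change was 0.25 (SE 0.16, adjusted p = 0.271), opposite in sign to those of Kmo and Kynu upstream of it.

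**Figure D3:**
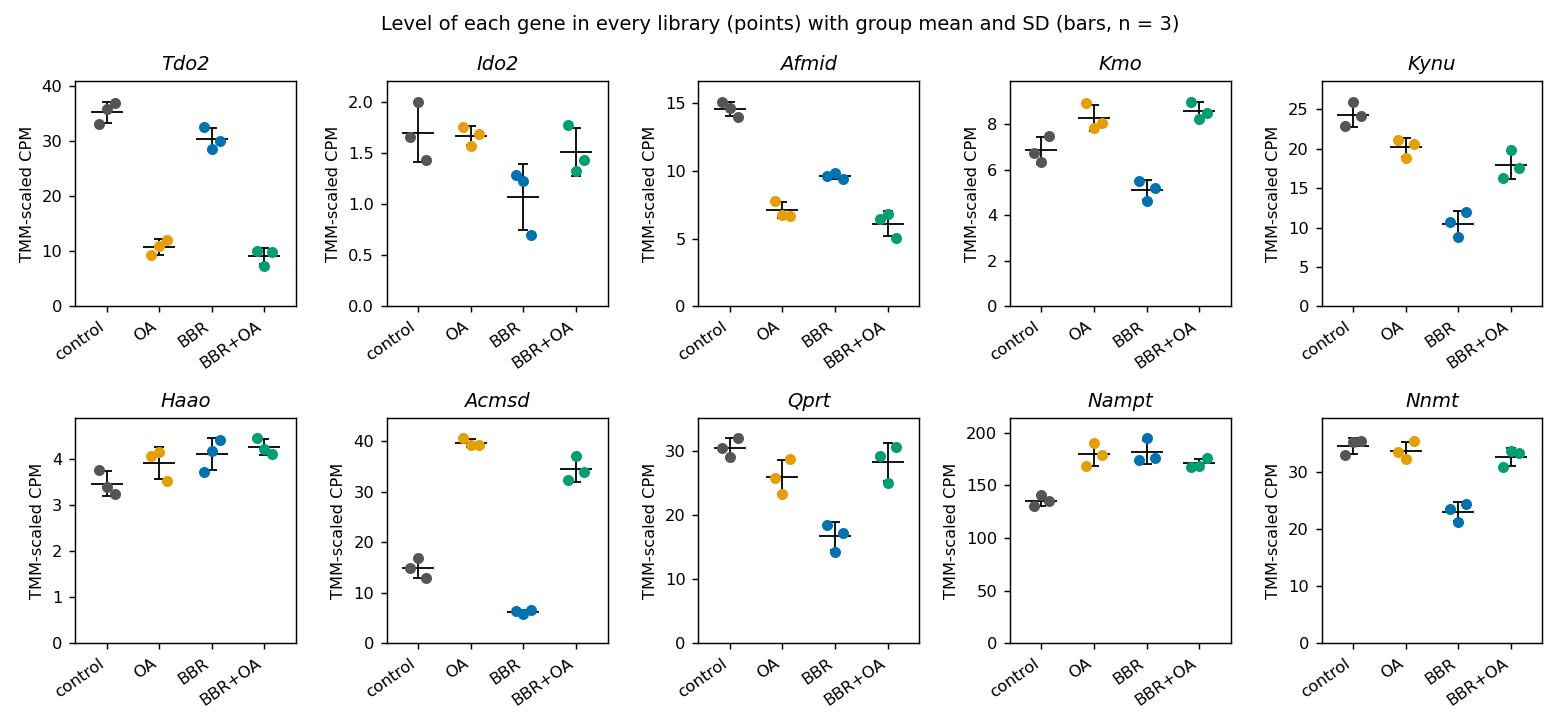
TMM-scaled CPM of each of the 10 genes in the 12 libraries, with points for single libraries and bars for the mean and SD of 3 libraries in each group; each panel has its own axis. Kynu, Qprt, Nnmt and Acmsd have their lowest group with BBR, Tdo2 is low in both OA groups (7.40 to 12.05 CPM), and Nampt is lowest in control (130.3 to 141 CPM).

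Acmsd (ENSMUSG00000026348, chromosome 1, 127729413 to 127767978, plus strand), the decarboxylase at the branch, had the widest range of group means among the 10 genes on the log2 scale. It measured 14.8, 16.9 and 12.8 CPM in control, 6.30, 5.79 and 6.62 CPM with BBR, 40.6, 39.2 and 39.3 CPM with OA and 32.3, 37.1 and 33.9 CPM with BBR+OA. No group overlapped another, and the order was BBR, control, BBR+OA, OA. Of its 2831 exonic bases, 94 are shared with a gene on the other strand, 2900009J06Rik, which is not among the features of the tables used here.

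The log2 fold change of Acmsd with BBR was -1.23 (SE 0.12, adjusted p = 1.08e-06) without OA and -0.21 (SE 0.064, adjusted p = 0.0830) with OA, and the interaction was 1.04 (SE 0.13, adjusted p = 6.00e-05). OA raised Acmsd by 1.43 (SE 0.085, adjusted p = 1.52e-08) without BBR and by 2.46 (SE 0.087, adjusted p = 1.46e-10) with BBR.

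Qprt (ENSMUSG00000030674, chromosome 7, 127107114 to 127122226, minus strand), which commits quinolinate to NAD, measured 30.5, 29.2 and 32.0 CPM in control and 18.5, 14.3 and 17.3 CPM with BBR. It measured 25.8, 23.4 and 28.8 CPM with OA and 29.3, 25.0 and 30.6 CPM with BBR+OA. The BBR libraries lay below all others, the OA libraries lay below control, and the BBR+OA libraries overlapped both. Its log2 fold change with BBR was -0.85 without OA (SE 0.084, adjusted p = 1.77e-06) and 0.12 with OA (SE 0.090, adjusted p = 0.532), with an interaction of 0.98 (SE 0.13, adjusted p = 1.14e-04).

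OA moved Acmsd and Qprt unequally. Qprt rose when OA was added to BBR (log2 0.75, SE 0.097, adjusted p = 3.14e-05), while without BBR its change was -0.23 (SE 0.079, adjusted p = 0.0327). The latter fall was lost without control replicate 1 or 3, without OA replicate 1 or 2 and in DESeq2, with adjusted p-values of 0.0552 to 0.158.

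The ratio of Acmsd to Qprt mRNA, each in FPKM, was computed in every library as a description of the branch. It was 0.366, 0.437 and 0.302 in control and 0.257, 0.306 and 0.289 with BBR, so that these groups overlapped. It was 1.19, 1.26 and 1.03 with OA and 0.833, 1.12 and 0.835 with BBR+OA, again with overlap. Every library with OA had a higher ratio than every library without it, and the mean was 1.16 ± 0.119 (SD, n = 3) with OA against 0.369 ± 0.0674 in control. The mean was 0.284 ± 0.0252 with BBR and 0.930 ± 0.166 with BBR+OA. These are ratios of mRNA and not of enzyme or metabolite.

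**Figure D4:**
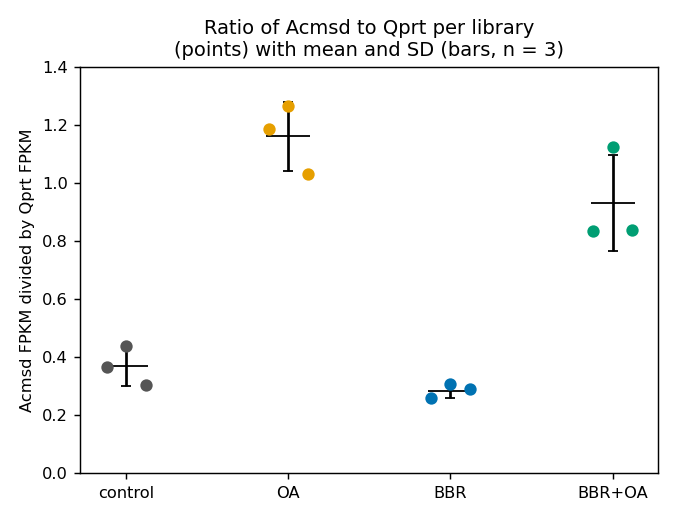
Ratio of Acmsd to Qprt mRNA (FPKM over FPKM) in each of the 12 libraries by group, with the mean and SD of 3 libraries. The 6 libraries with OA lie between 0.833 and 1.26, above the 6 without OA, which lie between 0.257 and 0.437.

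Nampt (ENSMUSG00000020572, chromosome 12, 32819545 to 32853349, plus strand), the salvage enzyme, was the only one of the 10 called higher with BBR alone. It measured 130.3, 141 and 135 CPM in control, 174, 195 and 176 CPM with BBR, 169, 190.5 and 179 CPM with OA and 168, 169 and 176 CPM with BBR+OA. Every treated library lay above every control library, and the 3 treated groups overlapped each other. Its log2 fold change was 0.43 with BBR (SE 0.052, adjusted p = 1.24e-05) and 0.41 with OA (SE 0.054, adjusted p = 3.00e-05).

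Neither agent gave a called rise of Nampt when the other was present. BBR in the presence of OA gave -0.074 (SE 0.052, adjusted p = 0.482), OA in the presence of BBR gave -0.089 (SE 0.048, adjusted p = 0.164), and the interaction was -0.49 (SE 0.075, adjusted p = 2.90e-04).

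Nnmt (ENSMUSG00000032271, chromosome 9, 48591877 to 48605153, minus strand), the nicotinamide methyltransferase, measured 32.9, 35.2 and 35.4 CPM in control and 23.5, 21.1 and 24.4 CPM with BBR. It measured 33.4, 32.2 and 35.4 CPM with OA and 30.8, 33.7 and 33.4 CPM with BBR+OA. Only the BBR group stood apart from control. The log2 fold change with BBR was -0.57 (SE 0.069, adjusted p = 1.19e-05) without OA and -0.051 (SE 0.065, adjusted p = 0.734) with OA, the interaction was 0.53 (SE 0.093, adjusted p = 8.87e-04), and OA added to BBR gave 0.50 (SE 0.069, adjusted p = 5.96e-05).

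The wider pathway was described with 5 further lists, 55 genes in all. They covered tryptophan transport and other uses of tryptophan (12 genes), side branches of kynurenine and the oxidation arm (7), other steps of NAD and NADP synthesis (12), enzymes that use NAD or clear nicotinamide (20) and receptors for pathway metabolites (4). Between 48 and 50 of them passed the filter on low counts. The interferon-inducible dioxygenase Ido1 was low, at 0.629 CPM ± 0.506 (SD, n = 3) in control.

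With BBR alone, 15 of 48 genes were called, 2 higher and 13 lower, beside 27.7% of all genes (13.2% higher and 14.5% lower), with a median log2 fold change of -0.088 over those tested. The list of side branches and oxidation arm gave 3 falls among 7 genes, including Kyat1, a kynurenine aminotransferase, a side-branch enzyme, which went from 9.50 CPM ± 0.702 (SD, n = 3) to 4.92 CPM ± 0.336 (log2 -0.94, SE 0.12, adjusted p = 2.18e-05), and Aldh8a1, the dehydrogenase acting after Acmsd (-0.82, SE 0.20, adjusted p = 0.00605). NAD use and nicotinamide clearance gave 7 falls and 1 rise among 19, the largest fall being that of Aox3, an aldehyde oxidase, from 15.2 CPM ± 0.514 to 7.98 CPM ± 0.0537 (-0.92, SE 0.089, adjusted p = 1.46e-06). Naprt, which starts NAD synthesis from nicotinic acid, went from 19.999 CPM ± 1.20 to 12.6 CPM ± 1.46 (-0.64, SE 0.090, adjusted p = 5.44e-05) in a list with 2 falls and 1 rise among 10. The amino acid transporter Slc43a1 (-0.92, SE 0.26, adjusted p = 0.0132) was the single call among 9 genes of tryptophan transport and use, and it was lost without BBR replicate 2 (-0.77, adjusted p = 0.0603). Of the 3 receptors tested, edgeR and DESeq2 called 0, and 0 had an unadjusted p under 0.05.

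With BBR in the presence of OA, 1 of 50 genes was called, beside 4.59% of all genes, and 6 had an unadjusted p under 0.05. The called gene was Gpr35, a receptor that responds to kynurenic acid, which went from 5.21 CPM ± 0.694 (SD, n = 3) to 3.31 CPM ± 0.429 (log2 -0.65, SE 0.16, adjusted p = 0.0377). It was lost in 5 of the 6 fits that left out a library, all but the one without OA replicate 3, with adjusted p-values of 0.0561 to 0.148.

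The interaction was called for 9 of 50 genes, 8 of them above 0, beside 12.2% of all genes (6.87% above 0 and 5.31% below 0), with a median of 0.072 beside 0.012 over all genes. The named genes were Aox3 (1.22, SE 0.16, adjusted p = 9.72e-05), Aldh8a1 (0.95, SE 0.27, adjusted p = 0.0273), Naprt (0.81, SE 0.12, adjusted p = 3.04e-04), Kyat1 (0.77, SE 0.18, adjusted p = 0.00933) and Gcdh, a dehydrogenase of the final oxidation arm (0.51, SE 0.10, adjusted p = 0.00260). The others, named after their values were seen, were the NAD users Sirt5, Parp1 and Parp2 above 0 and Sirt2 below 0. Kyat1, Aldh8a1 and Gcdh belong to the list of side branches and oxidation arm, where the median was 0.51 over 7 genes. The value of Aldh8a1 was lost in 7 of 12 fits that left out a library, namely without control replicate 2 or 3, OA replicate 2, BBR replicate 2 or 3, or BBR+OA replicate 1 or 3 (adjusted p 0.0504 to 0.0794). The count of 9 itself fell to between 4 and 5 without control replicate 2, OA replicate 2, BBR replicate 2, or BBR+OA replicate 1 or 3, a share below or near that of all genes.

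OA against control gave 24 calls among 50 genes, 12 in each direction, beside 42.8% of all genes, so that the share called was near that of all genes. Tryptophan transport and use had 5 rises and 1 fall among 10, led by the transporter Slc6a19, which went from 0.261 CPM ± 0.165 (SD, n = 3), close to the floor, to 1.52 CPM ± 0.415 (log2 2.50, SE 0.41, adjusted p = 2.09e-04). Kyat1 rose by 1.16 (SE 0.12, adjusted p = 3.10e-06) to 21.1 CPM ± 3.65. Among NAD users 6 of 20 fell and none rose, including Sarm1, an NAD hydrolase (-1.87, SE 0.33, adjusted p = 3.77e-04), and Aox3 (-1.60, SE 0.11, adjusted p = 7.64e-08). All 3 receptors tested were called, 2 higher and 1 lower, the lower being the nicotinic acid receptor Hcar2 (-1.08, SE 0.22, adjusted p = 0.00121). Other NAD synthesis had 4 rises and 3 falls among 10, and side branches and oxidation arm 1 of each among 7.

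OA added to BBR also gave 24 calls among 50 genes, 15 higher and 9 lower, beside 38.9% of all genes (20.1% higher and 18.8% lower). The list of side branches and oxidation arm had 4 rises and no fall among 7, the largest in Kyat1 (log2 1.92, SE 0.11, adjusted p = 1.66e-08). Sarm1 (-1.65, SE 0.40, adjusted p = 0.00453), Hcar2 (-0.90, SE 0.21, adjusted p = 0.00383) and the monoamine oxidase Maoa (-0.76, SE 0.071, adjusted p = 1.20e-06) fell. Cd38, an NAD glycohydrolase, rose by 0.90 (SE 0.26, adjusted p = 0.0151), which was lost without BBR replicate 1 (0.77, adjusted p = 0.0586) or BBR+OA replicate 1 (0.69, adjusted p = 0.0806). Other NAD synthesis had 5 rises and 2 falls among 10, tryptophan transport and use 4 and 1 among 10, NAD use 2 and 5 among 20, and receptors 1 fall among 3.

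Genes whose 4 group means lay closest to those of Acmsd, Tdo2 and Nampt were sought among 9713 genes, by the root mean square difference of log2 CPM after centring each gene. Nearest to Acmsd were Vil1 (0.19), Cdc42ep5 (0.21) and Crp (0.22). Nearest to Tdo2 were Scara5 (0.072), Nos1ap (0.10) and Lamb3 (0.12), and nearest to Nampt were Ostf1, Tmem60 and Ak4, each at 0.026. None of the other 9 genes of the list was among the 3 nearest to any of them. Acmsd, with its wide range, had no neighbour as close as those of Nampt, and with 4 group means such closeness describes a shape only.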

How the data were processed

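RNA sequencing tables of 12 libraries from mouse hepatocytes were used, 3 in each of the control, OA, BBR and BBR+OA groups, with group and replicate number taken from the sample titles. Per the labels, polyadenylated RNA was fragmented, primed at random for cDNA and read on an Illumina HiSeq instrument. For each library the authors deposited an estimated count and an FPKM value for 22471 features. The estimated counts that the authors deposited were fractional in 2862 features in at least 1 library and were rounded here. The deposited FPKM values, scaled by length and depth, served only to compare levels between genes. The submitters' processing notes name the build mm10, and the aligner, the counting program, the annotation and the use of strand are not given in the sources used here. Reads from near-identical or overlapping genes cannot be reassigned from such counts.

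Comparisons were fitted on the 6 libraries of 2 groups in edgeR 4.0.16 (R 4.3.3) with filterByExpr at a minimum count of 10, TMM scaling and the two-sided quasi-likelihood F test, adjusted by Benjamini-Hochberg over all genes tested and called at 0.05. The interaction of BBR and OA was fitted on all 12 libraries. The SE of a log2 fold change was derived from the F statistic. Printed CPM values share a TMM scale over the 12 libraries. Alternatives were DESeq2 1.42.0, RLE and upper quartile scaling, no filter on low counts, all 12 libraries in 1 fit, the replicate number as a block, and leaving out each library in turn. The fits were also run on simulated counts in which all genes shared the same dispersion. Such a run checks the code and does not show how the fits perform at the spread of these libraries. Replicate pairs differed by more than sampling noise (chi-square per degree of freedom 2.77 to 7.61), so no library was counted as a duplicate.

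The 10 genes, the 5 further lists, the marker lists and the rules were chosen with earlier results of these data known. Named genes were the 10 genes, and in each comparison the 5 called genes of the further lists with the largest absolute log2 fold change and at least 1 CPM in the higher group. The 3 genes most like Acmsd, Tdo2 or Nampt were taken among genes averaging at least 5 CPM, on log2(CPM + 0.5). Coordinates are from GENCODE vM21 (GRCm38) and upstream sequences from RefSeq (GRCm38.p6); 1 upstream sequence is not reported here. Figures were drawn with matplotlib 3.10.9.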

Additional observations from a re-analysis of the deposited data

Results flagged for a closer look

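The effect of BBR differed between hepatocytes with and without OA for 5 of the 10 genes and 9 of the further pathway genes, by the interaction term of edgeR's quasi-likelihood test over all 12 libraries with adjustment over all genes. Over all genes the share called was 12.2%. The 9 were among 50 tested, and their number ran from 4 to 10 when 1 library was left out. Aldh8a1 lost its call in 7 of those fits. Values are the log2 change with BBR in the presence of OA minus that in its absence. Among the 10 genes of the pathway they were 1.04 for Acmsd, 1.04 for Kynu, 0.98 for Qprt, 0.53 for Nnmt and -0.49 for Nampt. Among the further pathway genes they were 1.22 for Aox3, 0.95 for Aldh8a1, 0.81 for Naprt, 0.77 for Kyat1 and 0.51 for Gcdh, the 5 largest, and 0.47 for Sirt5, 0.36 for Parp2, 0.29 for Parp1 and -0.29 for Sirt2. Acmsd, Kynu, Qprt, Nnmt, Aox3, Aldh8a1, Naprt, Kyat1 and Gcdh were each lower with BBR alone at an adjusted p under 0.05, and Nampt was higher. None of these genes was called for BBR+OA against OA in the edgeR fit of those 6 libraries without a block. With the replicate number as a block, Acmsd was called lower (-0.21, adjusted p = 0.0346). Gcdh was then called higher (0.22, adjusted p = 0.0234), opposite in sign to its fall with BBR alone. Groups of 3 libraries are too small for a test of single outlying libraries, so none was made.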

How the results depend on the processing

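Across the alternatives, 622 of 649 values of the 10 genes kept their side of the threshold, 18 lost a call and 9 gained a call. For the other named genes 726 of 764 kept their side, 24 lost and 14 gained a call. No called value changed sign. Some uncalled values did: those of Ido2 and Nnmt with OA, Haao for BBR+OA against BBR and Tdo2 in the interaction. Uncalled values of other named genes, such as Gpr35 with BBR alone, also changed sign. The lost calls of the 10 genes were the small changes of Tdo2 and Kmo with BBR and of Kynu and Qprt with OA. Leaving out 1 library gave 6 to 8 called among the 10 genes for BBR against control, 0 for BBR+OA against OA, 4 to 6 for OA against control, 7 for BBR+OA against BBR and 5 to 6 for the interaction. Among the other pathway genes it gave 11 to 15, 0 to 2, 21 to 26, 19 to 24 and 4 to 10. Over all genes, leaving out 1 library gave 2598 to 3240, 216 to 632, 4270 to 5273, 4012 to 4378 and 1027 to 1679 calls in the same order. DESeq2 called 6, 0, 5, 7 and 5 of the 10 genes, beside 2746, 513, 4589, 3854 and 1408 calls over all genes. Fits that left out a library held fewer libraries than the main fit, and the cause of these shifts was not tested.

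With the replicate number as a block, 1 of the 10 genes was called for BBR+OA against OA (Acmsd, log2 -0.21, adjusted p = 0.0346) and 6 of the other pathway genes were, 3 higher and 3 lower, with 1333 calls over all genes against 563 without it. The block also added a call of Kmo with OA (0.28, adjusted p = 0.0391) and in the interaction (0.47, adjusted p = 0.0345), and removed none of the 10 genes' calls. For same-numbered libraries, the correlations of their deviations from the group means were 0.0234 to 0.155, all positive, with 2 of 12 above 0.1. The sources do not say if such libraries shared a mouse or a preparation, and these correlations cannot decide it.

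Ido2 had 13 to 42 counts a library, which limits its precision.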
